A study of Mus musculus with 75 samples.

Results

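The response of epididymal white fat (eWAT) to a high-fat diet (HFD) was described in C57n:C3Hmt mice, an exchange line with the nuclear genome of C57BL6/J and the mitochondrial genome of C3H/HeN. The libraries were chosen by their labels for tissue and genotype, and they are 7 of the 75 RNA-seq libraries of the series and 7 of its 29 eWAT libraries. The HFD group holds 3 libraries of C57n:C3Hmt mice that were weaned on chow and changed to HFD at week 6, with tissue taken at week 12 to 13. The chow group holds 4 libraries of C57n:C3Hmt mice of the same ages that stayed on chow. No other allele, transgene or agent is named in the labels, and the exchanged mitochondrial genome is common to both groups. Each library carries its own animal number in its title and was taken as 1 animal. The series as a whole crosses C57 and C3H nuclear and mitochondrial genomes and asks, per its design text, whether mitochondrial DNA changes the transcriptional response to diet. The C57n:C57mt wild type shares the nuclear genome and supplied the nearest comparison, with 4 HFD and 4 chow eWAT libraries.

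Epididymal fat is a visceral depot that stores triglyceride and lies against the epididymis. Its adipocytes make fatty acids from glucose by de novo lipogenesis, in which citrate leaves the mitochondrion, is cleaved to acetyl-CoA and is built into fatty acids with NADPH. Dietary fat is known to lower this pathway through lower activity of the transcription factors SREBP-1c and ChREBP. Growing fat is also known to raise leptin, to remodel its collagen matrix and to gather macrophages.

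Total expected counts ran from 16.4 to 18.9 M in the HFD libraries, against 25.6 to 27.5 M in the chow libraries. All 3 HFD libraries come from run H31244 and all 4 chow libraries from run H22786, by the titles, so diet and sequencing run cannot be told apart in any value given here. G+C content of aligned bases was 48.62 to 48.98% in HFD libraries and 48.98 to 49.68% in chow libraries, and ribosomal reads were 0.85 to 1.53% in HFD libraries and 1.5 to 8.03% in chow libraries.

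Chow replicates 1 and 4 stood apart from the other 5 libraries. They were close to each other, with a correlation of 0.986, against 0.984 for chow replicates 2 and 3. The median chi-square of counts per gene was 1.37 between them, where 1 is sampling noise. It was 7.36 for chow replicates 2 and 3 and 2.96 to 6.39 between HFD replicates. Mean values were 20.9 for chow replicates 1 and 4 and 21.7 for HFD replicates 1 and 2. That chow replicates 1 and 4 are different animals rests on the titles alone. Crisp1, a secretory protein of the epididymal epithelium, was at 0 CPM (read counts scaled to a common library size, with sizes adjusted by the trimmed mean of M values, TMM) in HFD replicates 1, 2 and 3. Its level was 479, 0.917, 1.14 and 388 CPM in chow replicates 1 to 4. The epididymal glutathione peroxidase Gpx5 was at most 0.0594 CPM on HFD, and 36523, 7.73, 5.5 and 34353 CPM in chow replicates 1 to 4. Adiponectin (Adipoq), the most specific product of adipocytes, was 5160, 3720 and 4068 CPM on HFD, and 964, 5258, 4032 and 1318 CPM in chow replicates 1 to 4. The 20 epididymis genes together summed to 27.4 to 114 CPM on HFD, to 28 and 49.7 CPM in chow replicates 3 and 2, and to 38183 and 36398 CPM in chow replicates 1 and 4. The first principal component held 78% of the variance and separated chow replicates 1 and 4, at 178.6 and 179.8, from the other libraries, at -86.6 to -51.3. The second held 8.5% and placed the HFD libraries at 19.1 to 55.6 and chow replicates 2 and 3 at -55.5 and -48.9. Over all eWAT, 6 of 29 libraries had more than 100 CPM of Crisp1, and the results are given with and without these 6, which leaves 3 HFD and 2 chow libraries of C57n:C3Hmt. HFD replicate 3 was far above HFD replicates 1 and 2 for Mmp12 and Gpnmb, described below.

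**Figure D1:**
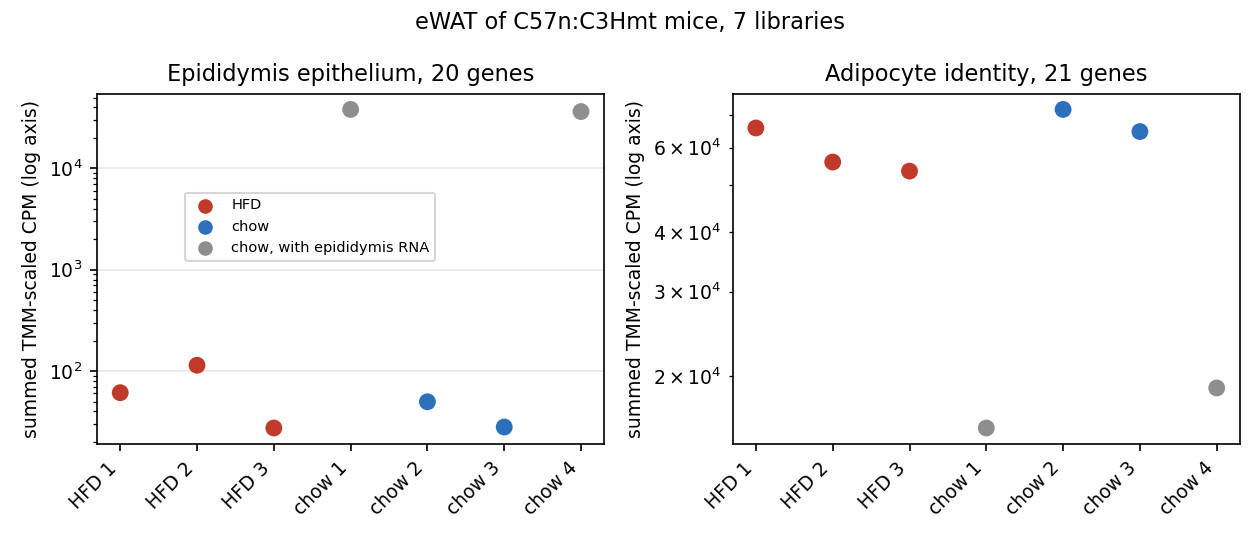
Summed TMM-scaled CPM (log axis) of 20 epididymis genes (left) and 21 adipocyte identity genes (right) in each of the 3 HFD and 4 chow libraries. Chow replicates 1 and 4 lie at 38183 and 36398 CPM of epididymis genes and at 15570 and 18874 CPM of adipocyte genes, where the other 5 libraries have 53565 to 72062 CPM.

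Of 17781 genes tested with edgeR over all eWAT libraries, 1241 were called at an adjusted p under 0.05 (6.98%), 562 higher and 679 lower on HFD than on chow. Of the 679 lower genes, 587 were higher in both chow replicates 1 and 4 than in the other 5 libraries, and of the 562 higher genes 420 were lower in both than in the other 5. Without the 6 libraries, 459 of 16668 genes were called (2.75%), 238 higher and 221 lower. The 2 sets shared 224 genes with the same sign, 139 higher and 85 lower, which are 18% of the first set and 48.8% of the second. When only chow replicates 1 and 4 were left out and the other 4 affected libraries stayed in the fit, 45 of 17762 genes were called (0.253%), all of them among the 459 with the same sign and 29 of them also among the 1241. Most calls named below, those made in both fits included, thus did not pass there. Leaving out 1 library changed the count over all libraries to 50, 58 and 140 genes without HFD replicates 1, 2 and 3, and to 60, 2393, 2590 and 94 without chow replicates 1 to 4. Without the 6 libraries and HFD replicate 1, 2 or 3, it was 235, 197 and 141. The fits with only C57n:C3Hmt libraries called 0 genes by edgeR, with 4161 genes at an unadjusted p under 0.05 for all 7 libraries and 3807 for 5, and DESeq2 called 3472 genes over all eWAT libraries. Transcript GC content moved with the calls: its median was 42.8% in genes called higher and 56.8% in genes called lower without the 6 libraries, and 50.4% in all genes tested. After removal of the trends on GC and transcript length, 0 genes were called by edgeR over all libraries (3025 at an unadjusted p under 0.05) and 148 without the 6 libraries (69 higher, 0.488%, and 79 lower, 0.559%), of which 113 were also among the 459. The part of GC content in the calls was not tested.

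Part of the de novo lipogenesis pathway fell on HFD. Without the 6 libraries, 8 of the 21 genes on this list fell and 0 rose, against a background of 1.33% of genes called lower, and the median log2 fold change was -1.48, against -0.01 over all genes. Over all libraries, Acly, Elovl6 and Fads1 fell, against a background of 3.82% of genes called lower, and the median was -0.81, against -0.09 over all genes. With the GC and length trends removed, 7 of the 21 genes fell without the 6 libraries. With only chow replicates 1 and 4 left out, 6 fell: Acly, Acss2, Acaca, Fasn, Mod1 and Slc25a1. The summed level of the list was 48822, 46164 and 30944 CPM on HFD, against 13646, 124330, 66528 and 14175 CPM in chow replicates 1 to 4. The HFD libraries lay below chow replicates 2 and 3 and above chow replicates 1 and 4, in which adipocyte genes were low.

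Fasn, the fatty acid synthase itself (mm9 chromosome 11, 120667254 to 120685492, minus strand), was 3975, 3250 and 1710 CPM on HFD, and 1316, 13866, 13919 and 637 CPM in chow replicates 1 to 4. Its log2 fold change was -2.25 ± 0.46 (SE) with an adjusted p of 0.0162 without the 6 libraries, and -1.32 ± 0.69 with an adjusted p of 0.208 with them. Both chow libraries without epididymis RNA were above all HFD libraries, while the other 2 chow libraries were below them. Acaca, the acetyl-CoA carboxylase that commits carbon to fatty acids, was 633, 575 and 193 CPM on HFD and 160, 2180, 2049 and 142 CPM on chow. Acaca fell without the 6 libraries (-2.20 ± 0.44, adjusted p 0.0143) and did not pass with them (-1.28 ± 0.67, adjusted p 0.205).

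Genes that supply acetyl-CoA also fell. Acly (chromosome 11, 100337667 to 100389314, minus strand), which cleaves citrate in the cytosol, was 507, 587 and 276 CPM on HFD and 1003, 2207, 2083 and 922 CPM on chow, with no overlap between the groups. Acly fell by both fits, with a log2 fold change of -1.77 ± 0.40 over all libraries (adjusted p 0.0185) and -2.26 ± 0.36 without the 6 (adjusted p 0.00373). Genes whose 3 HFD libraries lay all above or all below the 4 chow libraries made up 25.3% of those tested, and 42.6% did so against chow replicates 2 and 3 alone. Acss2 (chromosome 2, 155343684 to 155411460, plus strand), which makes acetyl-CoA from acetate, was 188, 172 and 126 CPM on HFD and 95, 1100, 690 and 56.4 CPM on chow. Its change was -2.49 ± 0.32 without the 6 libraries (adjusted p 0.000532) and -1.58 ± 0.62 with them, which did not pass (adjusted p 0.103). Slc25a1, the carrier that exports citrate from the mitochondrion, was 320, 293 and 239 CPM on HFD and 186, 1172, 808 and 153 CPM on chow, and fell by 1.83 on the log2 scale without the 6 libraries (SE 0.26, adjusted p 0.00175). Aacs, which activates acetoacetate for lipid synthesis, fell by 1.38 (adjusted p 0.0287) without the 6 libraries. Over all libraries Slc25a1 and Aacs had changes of -1.03 and -0.66 and did not pass (adjusted p 0.15 and 0.316).

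Further steps supply NADPH and lengthen or desaturate the chain. Mod1, the older symbol of the cytosolic malic enzyme that yields NADPH, was 913, 718 and 547 CPM on HFD and 215, 2881, 1769 and 120 CPM on chow, with a change of -1.71 ± 0.30 (adjusted p 0.00752) without the 6 libraries and -0.78 with them (adjusted p 0.408). Elovl6, which elongates saturated fatty acids, was 50.2, 44.5 and 23.5 CPM on HFD and 252, 434, 143 and 237 CPM on chow. Elovl6 fell in both fits, with log2 fold changes of -2.76 over all libraries (adjusted p 0.03) and -2.90 without the 6 (adjusted p 0.024), and its groups did not overlap, but it did not pass with only chow replicates 1 and 4 left out (adjusted p 0.165). Scd1, the desaturase that makes monounsaturated fatty acids and the most abundant gene of the list, did not pass in either fit: it was 38357, 37319 and 25184 CPM on HFD and 7769, 91953, 38539 and 9574 CPM on chow. The regulators Srebf1 and Mlxipl, which encode SREBP-1c and ChREBP, had log2 fold changes of -0.92 (adjusted p 0.113) and -1.55 (adjusted p 0.0629) without the 6 libraries.

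Outside the list, and chosen after their values were seen, the pentose phosphate enzymes Tkt and Pgd fell without the 6 libraries. Tkt was 751, 618 and 479 CPM on HFD and 400, 2370, 2023 and 367 CPM on chow, a change of -1.86 ± 0.22 (adjusted p 0.00053), and Pgd changed by -0.85 (adjusted p 0.0141). Over all libraries neither passed (adjusted p 0.113 and 0.873). Within the tricarboxylic acid cycle list, 2 of 20 genes fell without the 6 libraries, where 1.33% of all genes were called lower, and edgeR called 0 with them. These were Pcx, which carboxylates pyruvate (1438, 1157 and 873 CPM on HFD, and 350, 2969, 2406 and 369 CPM on chow, change -1.24, adjusted p 0.0193), and the pyruvate dehydrogenase subunit Pdhb (change -0.95, adjusted p 0.0392).

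**Figure D2:**
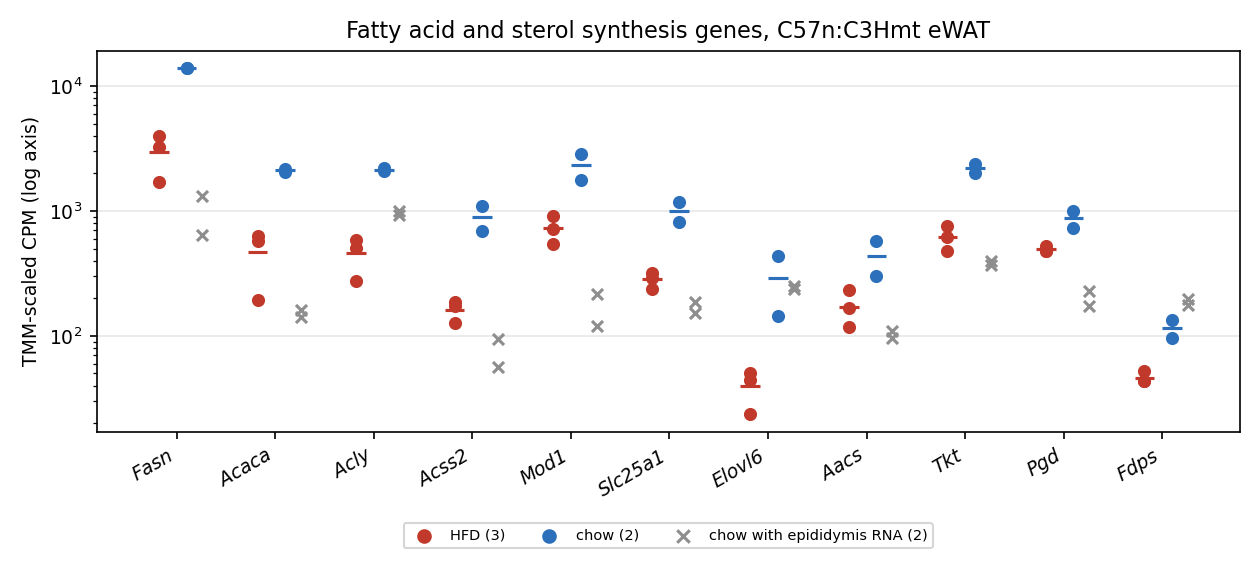
TMM-scaled CPM (log axis) of 11 genes of fatty acid and sterol synthesis in each library, with HFD libraries left of chow libraries, crosses for the 2 chow libraries with epididymis RNA, and bars at the mean of 3 HFD and of 2 chow libraries. All 3 HFD libraries lie below both chow libraries without epididymis RNA for each of the genes shown, and for Fasn the means are 2978 and 13893 CPM.

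Some sterol synthesis genes also fell. Of 23 genes on the cholesterol list, 5 fell over all libraries and 0 rose (Tm7sf2, Fdps, Nsdhl, Mvd and Fdft1), and 2 fell without the 6 libraries (Fdps and Tm7sf2), where 3.82% and 1.33% of all genes were called lower. With only chow replicates 1 and 4 left out, edgeR called 0 of them (adjusted p 0.272 for Fdps and 0.327 for Tm7sf2). The list median was -0.77 over all libraries and -0.51 without the 6. Fdps, which makes farnesyl diphosphate, was 43.3, 43.7 and 51.9 CPM on HFD and 196, 135, 95.6 and 176 CPM on chow, and fell in both fits (-1.70 ± 0.41, adjusted p 0.0231 over all libraries, and -1.34 ± 0.33, adjusted p 0.0351 without the 6). Chow replicates 1 and 4 were the highest for Fdps, the reverse of their place for Fasn. Tm7sf2, a sterol reductase, was 8.85, 8.23 and 6.82 CPM on HFD and 62.1, 27.3, 15.8 and 62.4 CPM on chow (-1.46, adjusted p 0.0312 without the 6).

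The promoters of 9 of the 10 lipogenic and sterol genes that fell without the 6 libraries were found in RefSeq (GRCm38.p6; Fdps was not matched), as 10 windows of 250 bases before to 50 after a gene's start. The motif CCAAT, the box bound by NF-Y, was searched on both strands, and overlapping matches were each counted. It occurred in 6 of these 10 windows and in 37.4% of all 32851 promoter windows. An exact form of the sterol regulatory element, TCACNCCAC, was in 0 of the 10 and in 1.24% of all windows. At so low a share, 0 of 10 does not set these windows apart, and other forms of the element were not searched. The windows of Fasn (chr11:120824498-120824797, minus strand) and Slc25a1 (chr16:17928170-17928469, minus strand) are shown because they held 3 and 2 CCAAT matches, the most of the set, with the matches in capitals (CCAAT or its reverse complement ATTGG).
Fasn: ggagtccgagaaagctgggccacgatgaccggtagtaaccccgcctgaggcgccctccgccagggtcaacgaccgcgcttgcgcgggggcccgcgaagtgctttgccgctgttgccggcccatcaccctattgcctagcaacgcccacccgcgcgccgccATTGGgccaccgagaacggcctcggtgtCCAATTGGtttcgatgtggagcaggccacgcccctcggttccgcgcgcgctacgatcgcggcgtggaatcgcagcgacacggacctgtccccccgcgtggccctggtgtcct
Slc25a1: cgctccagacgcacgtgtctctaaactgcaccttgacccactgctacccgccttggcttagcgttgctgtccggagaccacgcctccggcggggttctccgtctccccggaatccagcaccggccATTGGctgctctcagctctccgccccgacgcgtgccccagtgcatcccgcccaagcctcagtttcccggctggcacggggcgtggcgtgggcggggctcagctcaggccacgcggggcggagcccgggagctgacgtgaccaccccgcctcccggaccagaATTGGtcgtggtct
The first match of Fasn stands alone and the other two overlap head to head, while those of Slc25a1 are far apart. A match describes these letters and is not a site of binding.

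Other genes that were lower on HFD included H2-Q10, a secreted class Ib antigen (chromosome 17, 35607034 to 35611508, plus strand). It was 3.57, 7.75 and 2.97 CPM on HFD and 1.93, 49.9, 36.1 and 2.92 CPM on chow, with a change of -3.20 ± 0.35 (adjusted p 0.000194) without the 6 libraries and -2.25 ± 0.83 (adjusted p 0.0839) with them. H2-Q10 belongs to a family of near-identical genes between which the counting may have divided reads. Slc2a5, the fructose transporter, was 0.178, 0.361 and 0.055 CPM on HFD and 16.2, 6.07, 2.88 and 15.8 CPM on chow, all of them above HFD (adjusted p 0.00752 without the 6 libraries and 0.0838 with them). Its HFD values lay around the detection limit of 0.159 to 0.183 CPM, so the size of its fall is uncertain. Sorl1, a sorting receptor, was 31.9, 22.9 and 24.3 CPM on HFD and 25.3, 91.6, 101 and 20.3 CPM on chow (-1.90 ± 0.34, adjusted p 0.00847 without the 6 libraries, and adjusted p 0.232 with them).

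Few interferon-stimulated genes passed, and most had negative changes. Of 25 genes, 3 fell without the 6 libraries (Irf7, Isg15 and Ifit3) and 2 over all libraries (Irf7 and Oas3), and 0 rose in either fit, where 1.33% and 3.82% of all genes were called lower. The median was -1.05 without the 6 libraries and -0.63 with them. Irf7, a transcription factor that amplifies type I interferon, was 21.8, 19.9 and 14.0 CPM on HFD and 28.9, 61.1, 48.3 and 28.2 CPM on chow, with no overlap. Irf7 changed by -1.59 ± 0.33 without the 6 libraries (adjusted p 0.0182) and by -1.16 ± 0.32 with them (adjusted p 0.0345), and was called with only chow replicates 1 and 4 left out (adjusted p 0.0446). Isg15 was 7.07, 4.81 and 5.28 CPM on HFD and 9.54, 16.4, 13.7 and 7.15 CPM on chow. Log2 fold changes were negative for 24 of the 25 genes without the 6 libraries and for 21 with them. With the GC and length trends removed, 1 of them still fell without the 6 libraries.

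Genes known to follow fat expansion had positive changes. Of 12 on the list, all had positive log2 fold changes in both fits, 1 rose over all libraries (Peg3) and 3 rose without the 6 (Sfrp5, Bmp3 and Cav2), where 3.16% and 1.43% of all genes were called higher. The medians were 1.45 over all libraries and 0.94 without the 6, and with only chow replicates 1 and 4 left out edgeR called 0 of the 12. Sfrp5, a secreted Wnt-binding protein of adipocytes (chromosome 19, 42272461 to 42276742, minus strand), was 136, 77.8 and 476 CPM on HFD and 126, 12.1, 24.5 and 66.3 CPM on chow. It rose by 3.62 ± 0.70 without the 6 libraries (adjusted p 0.0124), while its change of 2.01 ± 0.84 over all libraries did not pass (adjusted p 0.119). Peg3, an imprinted zinc finger gene, was 17.6, 51.7 and 68.1 CPM on HFD and 5.15, 4.58, 6.18 and 7.61 CPM on chow, with no overlap (2.96 ± 0.69, adjusted p 0.0213 over all libraries, and 3.06 ± 0.87, adjusted p 0.0629 without the 6).

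Leptin (Lep, chromosome 6, 29010220 to 29023877, plus strand), the satiety hormone of adipocytes, was 2831, 2046 and 5477 CPM on HFD and 933, 1268, 1310 and 350 CPM on chow. All HFD libraries were above all chow libraries, but the change of 1.84 ± 0.70 did not pass (adjusted p 0.0922), nor did that of 1.39 ± 0.47 without the 6 libraries (adjusted p 0.11). Mest, an imprinted gene known to mark expanding adipocytes, was 242, 407 and 1359 CPM on HFD and 162, 167, 213 and 96.9 CPM on chow, and its change of 2.07 ± 0.77 did not pass (adjusted p 0.088). HFD replicate 3 was the highest for Lep, Mest, Sfrp5 and Peg3.

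Hspb7, a small heat shock protein known from muscle (chromosome 4, 140976694 to 140981226, plus strand), was called in both fits. It was 66.2, 51.8 and 133 CPM on HFD and 30.8, 7.86, 7.28 and 12.0 CPM on chow, with no overlap, and rose by 2.53 ± 0.55 over all libraries (adjusted p 0.0162) and by 3.44 ± 0.55 without the 6 (adjusted p 0.00415), and was called with only chow replicates 1 and 4 left out (adjusted p 0.0272). Cadps, which primes secretory vesicles, was 4.4, 3.73 and 8.25 CPM on HFD and 0.757, 1.09, 0.948 and 0.605 CPM on chow, and rose by 2.68 ± 0.45 (adjusted p 0.00429). The calcium channel gene Cacna1e was 3.68, 5.41 and 8.36 CPM on HFD and 1.59, 0.699, 0.531 and 1.46 CPM on chow (2.44 ± 0.61, adjusted p 0.0259 over all libraries). In other rises HFD replicate 3 was the highest by far. The clotting factor F7 was 0.832, 0.962 and 17.0 CPM on HFD and 0.391 to 0.607 CPM on chow, with a change of 3.69 over all libraries (adjusted p 0.0414) and 3.43 without the 6 (adjusted p 0.119). Gabrr2, a GABA receptor subunit, was 1.96, 2.95 and 13 CPM on HFD and 0.531 to 0.87 CPM on chow, and was called in both fits (adjusted p 0.0282 and 0.0264). Slc5a7, the choline transporter, was 15.6, 10.5 and 136 CPM on HFD and 15, 3.54, 0.493 and 1.96 CPM on chow, and rose by 4.73 ± 1.02 without the 6 libraries (adjusted p 0.0215), against an adjusted p of 0.0502 with them.

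Some genes that cross-link and remodel the matrix rose on HFD. Of 32 on the list, 7 rose and 0 fell over all libraries (Lox, Thbs2, Tnc, Dcn, Thbs1, Mmp12 and Timp2), against a background of 3.16% of genes called higher. In the fit without the 6 libraries 3 rose and 0 fell (Lox, Thbs2 and Ctgf), against 1.43% of genes called higher, with medians of 0.95 and 0.65 in these fits. With only chow replicates 1 and 4 left out, edgeR called 0 of the 32, with adjusted p of 0.237 for Lox and 0.306 for Thbs2. Lox, the lysyl oxidase that cross-links collagen and elastin, was 55.9, 71.5 and 94.5 CPM on HFD and 12.3, 24.4, 28.3 and 16 CPM on chow, with no overlap. It rose by 1.87 ± 0.40 over all libraries (adjusted p 0.0159) and by 1.46 ± 0.21 without the 6 (adjusted p 0.00191). The thrombospondin Thbs2 was 21.2, 33.0 and 36.8 CPM on HFD and 6.47, 10.6, 11 and 10.6 CPM on chow, and rose in both fits (1.65 ± 0.43, adjusted p 0.03, and 1.46 ± 0.35, adjusted p 0.0336). Ctgf, a matricellular growth factor, was 52.7, 52.5 and 68.2 CPM on HFD and 41.0, 21, 20.4 and 46.5 CPM on chow (1.45 ± 0.28, adjusted p 0.0119 without the 6 libraries, and adjusted p 0.0735 with them). The small proteoglycan Dcn was 1468, 2062 and 1525 CPM on HFD and 481, 999, 1030 and 673 CPM on chow, and rose over all libraries (1.08 ± 0.29, adjusted p 0.0309) but not without the 6 (0.70 ± 0.24, adjusted p 0.107).

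Of 35 collagen genes tested over all libraries, 34 were tested without the 6, and there 5 rose and 0 fell: Col6a5, Col4a5, Col12a1, Col23a1 and Col8a1. Over all libraries Col8a1 rose and Col13a1 fell, 1 of 35 in each direction, which is close to the 3.16% of all genes called higher and below the 3.82% called lower. In the fit without the 6, 1.43% of all genes were called higher, and with only chow replicates 1 and 4 left out edgeR called 0 collagens (adjusted p 0.292 for Col8a1). Col6a5, a chain of microfibrillar collagen, was 73.4, 143 and 59.4 CPM on HFD and 31.5, 17.7, 16.3 and 66.8 CPM on chow (2.40 ± 0.51, adjusted p 0.0202 without the 6 libraries, and adjusted p 0.0533 with them). Col4a5, a basement membrane chain, was 41.2, 58.7 and 25.1 CPM on HFD and 21.6, 14.7, 13.4 and 28.8 CPM on chow (1.54 ± 0.36, adjusted p 0.0281 without the 6 libraries, and adjusted p 0.0623 with them). Col8a1, a short-chain collagen, was 22.9, 18.1 and 22.1 CPM on HFD and 8.44, 8.95, 8.69 and 6.33 CPM on chow, apart in every library, and rose in both fits (1.38 ± 0.35, adjusted p 0.0278, and 1.23 ± 0.31, adjusted p 0.0427). The abundant fibrillar genes Col1a1, Col1a2 and Col3a1, named after their values were seen, had positive changes of 0.66, 0.90 and 0.96 over all libraries and passed in neither fit.

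Further stromal genes, chosen after their values were seen, rose without the 6 libraries. Cilp, a matrix protein named for cartilage, was 127, 125 and 87.9 CPM on HFD and 90.9, 35.6, 22.9 and 85.4 CPM on chow (1.93 ± 0.34, adjusted p 0.00752). Itgbl1, an integrin beta-like protein, was 22, 26.9 and 18.9 CPM on HFD and 16.3, 6.07, 4.7 and 16 CPM on chow (2.04 ± 0.26, adjusted p 0.000546). The oxytocin receptor gene Oxtr was 99.4, 160 and 235 CPM on HFD and 119, 29.9, 52.3 and 92.5 CPM on chow (1.97 ± 0.46, adjusted p 0.0283). For these genes chow replicates 1 and 4 were above chow replicates 2 and 3, and none of them was called over all libraries. Prelp, a proteoglycan of basement membranes, was called in both fits (1.79 ± 0.55, adjusted p 0.0485, and 1.55 ± 0.36, adjusted p 0.0285), with 1363, 949 and 2259 CPM on HFD and 418, 581, 440 and 318 CPM on chow.

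**Figure D3:**
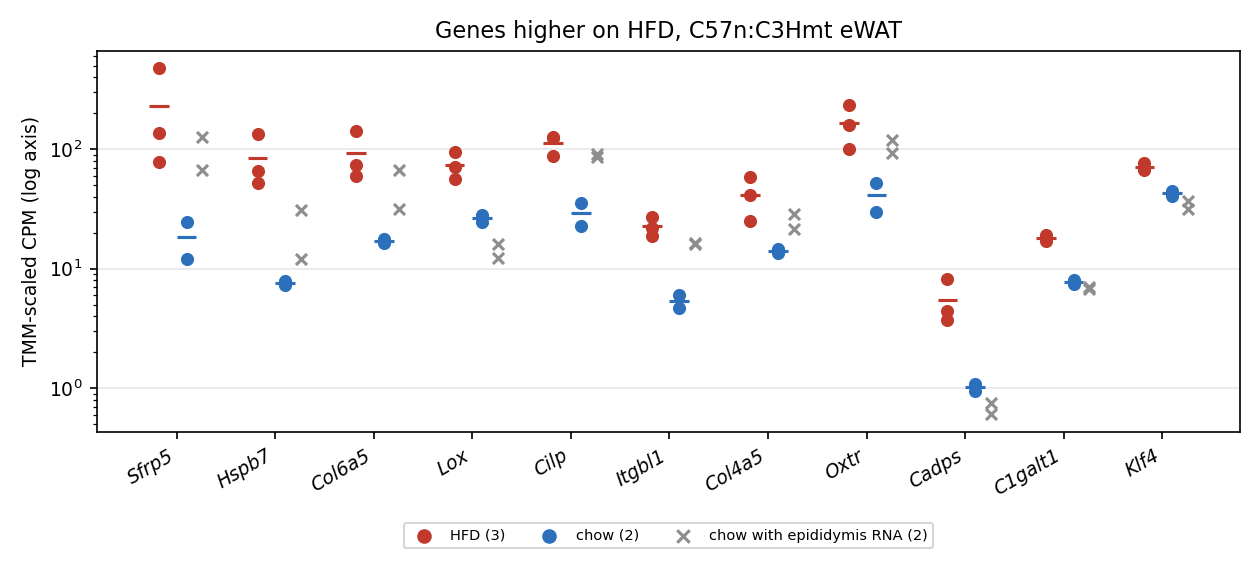
TMM-scaled CPM (log axis) of 11 genes that were higher on HFD, drawn as in the plot of lipogenic genes: HFD libraries left, chow libraries right, crosses for the 2 chow libraries with epididymis RNA, and bars at the means of 3 HFD and 2 chow libraries. Lox, C1galt1, Cadps, Hspb7 and Klf4 do not overlap between the diets in any library, while for Sfrp5, Cilp and Oxtr chow replicate 1 reaches into the HFD range.

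Most macrophage genes had positive changes, and none passed by edgeR. Of 28 macrophage and monocyte genes, 25 had a positive log2 fold change over all libraries and 22 without the 6, with medians of 0.98 and 0.44, and edgeR called 0 in both fits. In bulk tissue, fewer cells of a type and less RNA per cell cannot be told apart. Emr1, the F4/80 antigen of macrophages, was 84.1, 71.2 and 137 CPM on HFD and 21.2, 59.6, 59.3 and 17.9 CPM on chow (0.68 ± 0.44, adjusted p 0.4 without the 6 libraries). Ccr2, the monocyte chemokine receptor, was 51.0, 49.2 and 65.9 CPM on HFD and 10.9, 27.0, 36.2 and 9.36 CPM on chow, with no overlap, but did not pass (adjusted p 0.0999 and, without the 6 libraries, 0.301).

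Of 22 genes of lipid-associated macrophages, 16 had positive changes in each fit, with medians of 1.05 over all libraries and 0.77 without the 6, and 1 rose in each. Of all genes, 3.16% and 1.43% were called higher in these fits, so a count of 1 in 22 is near these shares. With the GC and length trends removed, 0 rose and 1 fell without the 6 libraries. The summed level of the list was 30918, 25760 and 32856 CPM on HFD and 11233, 31968, 30240 and 10611 CPM on chow. HFD replicate 1 thus lay between chow replicates 2 and 3, HFD replicate 2 below both and HFD replicate 3 slightly above both. Single genes of the list differed more. The elastase Mmp12 was 21.7, 23.7 and 330 CPM on HFD and 15.7, 7.12, 12.7 and 7.04 CPM on chow, and was called over all libraries (3.56 ± 1.02, adjusted p 0.0403) but not without the 6 (3.63 ± 1.12, adjusted p 0.0824). Gpnmb, a lysosomal glycoprotein, was 16.3, 23.9 and 346 CPM on HFD and 83.8, 5.2, 5.42 and 88.7 CPM on chow, and was called only without the 6 libraries (4.56 ± 1.21, adjusted p 0.05 after rounding). Trem2, the lipid-sensing receptor, named after its values were seen, was 4.69, 6.73 and 53.6 CPM on HFD and 9.2, 4.28, 3.6 and 8.61 CPM on chow, and passed in neither fit. HFD replicate 3 was the highest library for these 3 genes. The other 19 genes on this list were not called in either fit.

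Among 12 Toll-like receptors, 3 rose over all libraries (Tlr3, Tlr4 and Tlr8) and 1 without the 6 (Tlr4), and 0 fell, where 3.16% and 1.43% of all genes were called higher. With only chow replicates 1 and 4 left out edgeR called 0 of them (adjusted p 0.428 for Tlr4). Tlr4, the lipopolysaccharide receptor, was 34.2, 32.1 and 32.3 CPM on HFD and 7.49, 21, 18.4 and 7.68 CPM on chow, with no overlap (1.27 ± 0.34, adjusted p 0.0336, and 0.71 ± 0.17, adjusted p 0.0285). Tlr8 was 11.2, 10 and 16.4 CPM on HFD and 1.29, 4.15, 4.86 and 0.783 CPM on chow. With the GC and length trends removed, 0 of the 12 were called by edgeR with or without the 6 libraries. Lymphocyte genes had negative changes for 24 of 26 genes without the 6 libraries, with a median of -1.35, and edgeR called 0 there. Their summed level was 43.9, 29.9 and 65.7 CPM on HFD and 492, 94.5, 77.3 and 445 CPM on chow, and the 2 called over all libraries, Zap70 and Klrb1c, were at 30.8 to 436 CPM in chow replicates 1 and 4 and at 0.385 to 2.92 CPM in the other 5. Both were called lower, as were 3.82% of all genes over all libraries.

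Nuclear genes of oxidative phosphorylation had small changes. All 73 had negative log2 fold changes without the 6 libraries, with a median of -0.40, and 1 of them passed there (the complex I subunit Ndufa10, -0.73 ± 0.18, adjusted p 0.037) and 1 over all libraries (the ATP synthase subunit Atp5g1). A count of 1 in 73 is near the 1.33% of all genes called lower without the 6 libraries and below the 3.82% called lower over all libraries. Ndufa10 was 125, 117 and 98.1 CPM on HFD and 91.1, 200, 168 and 91.2 CPM on chow. The summed level of the 73 genes was 13344, 12737 and 12484 CPM on HFD, below chow replicates 2 and 3 at 17379 and 15963 CPM and above chow replicates 1 and 4 at 10367 and 10732 CPM. With all libraries the median was -0.16, and with the GC and length trends removed it was 0.25 (-0.32 without the 6 libraries). Mitochondrial ribosomal protein genes had negative changes for 72 of 74 without the 6 libraries, with a median of -0.26 and 0 called by edgeR. Atp5g1 and Mrpl37, the genes called lower over all libraries in these 2 lists, were at 211 to 533 CPM in chow replicates 1 and 4, against 42.2 to 70.8 CPM elsewhere.

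Of 24 genes that maintain mitochondrial DNA or drive mitochondrial biogenesis, Gabpa was called in both fits. Over all libraries 1 of the 24 rose and 1 fell, near the 3.16% of all genes called higher and the 3.82% called lower. Without the 6 libraries 1 rose and 2 fell, where 1.43% of all genes were called higher and 1.33% lower. Gabpa, a subunit of the nuclear respiratory factor GABP, was 47.8, 49.2 and 47.2 CPM on HFD and 24.4, 32.5, 34.1 and 25.8 CPM on chow, with no overlap (0.72 ± 0.14, adjusted p 0.00995, and 0.50 ± 0.13, adjusted p 0.0484), but not with only chow replicates 1 and 4 left out (adjusted p 0.181). Polrmt, the mitochondrial RNA polymerase, was 18.4, 17.8 and 16.5 CPM on HFD and 22.6, 28.6, 29.6 and 20.1 CPM on chow and fell without the 6 libraries (-0.76, adjusted p 0.0374), as did the nuclear receptor Esrra (-0.74, adjusted p 0.0266), and neither passed over all libraries (adjusted p 0.0611 and 0.138). Peo1, the mitochondrial DNA helicase, fell over all libraries (-0.75, adjusted p 0.0431) and did not pass without the 6. With the GC and length trends removed Gabpa, Polrmt and Esrra did not pass. Nnt, the proton-pumping transhydrogenase known to be defective in C57BL6/J, was 32.5, 27.6 and 20.2 CPM on HFD and 26.4, 26.1, 23.9 and 25.4 CPM on chow, with overlapping groups. Ucp1, the thermogenic uncoupler, was at most 0.0594 CPM on HFD and at most 0.189 CPM on chow. The 3 mtDNA-encoded genes tested were not called in either fit.

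Of 21 adipocyte identity genes, edgeR called 0 in either fit. Their median was -0.33 without the 6 libraries and 0.36 with them, and their sum was lowest in chow replicates 1 and 4. In the triglyceride and lipid droplet list, Bscl2 (seipin, a lipid droplet protein) fell without the 6 libraries (-0.97 ± 0.24, adjusted p 0.0381). Slc36a2, an amino acid transporter used as a brown fat marker, was 138, 140 and 135 CPM on HFD and 46.7, 272, 273 and 33.4 CPM on chow and fell without the 6 libraries (-1.01, adjusted p 0.0471). Of the 17 brown and beige fat genes tested there, 9 had positive and 8 negative changes, with a median of 0.17. Bscl2 and Slc36a2 were each the 1 call in lists of 19 and 17 genes, where 1.33% of all genes were called lower. Neither Bscl2 nor Slc36a2 passed over all libraries (adjusted p 0.72 and 0.86). Foxo1, an insulin-restrained transcription factor, and the kinase Pdpk1 rose over all libraries (1.26 and 0.62, adjusted p 0.0408 and 0.0485), and 0 of the 23 insulin signalling genes were called by edgeR without the 6. These 2 of 23 stand against the 3.16% of all genes called higher over all libraries. Of 13 lipolysis genes and 18 adipokines, edgeR called 0 in either fit.

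**Figure D4:**
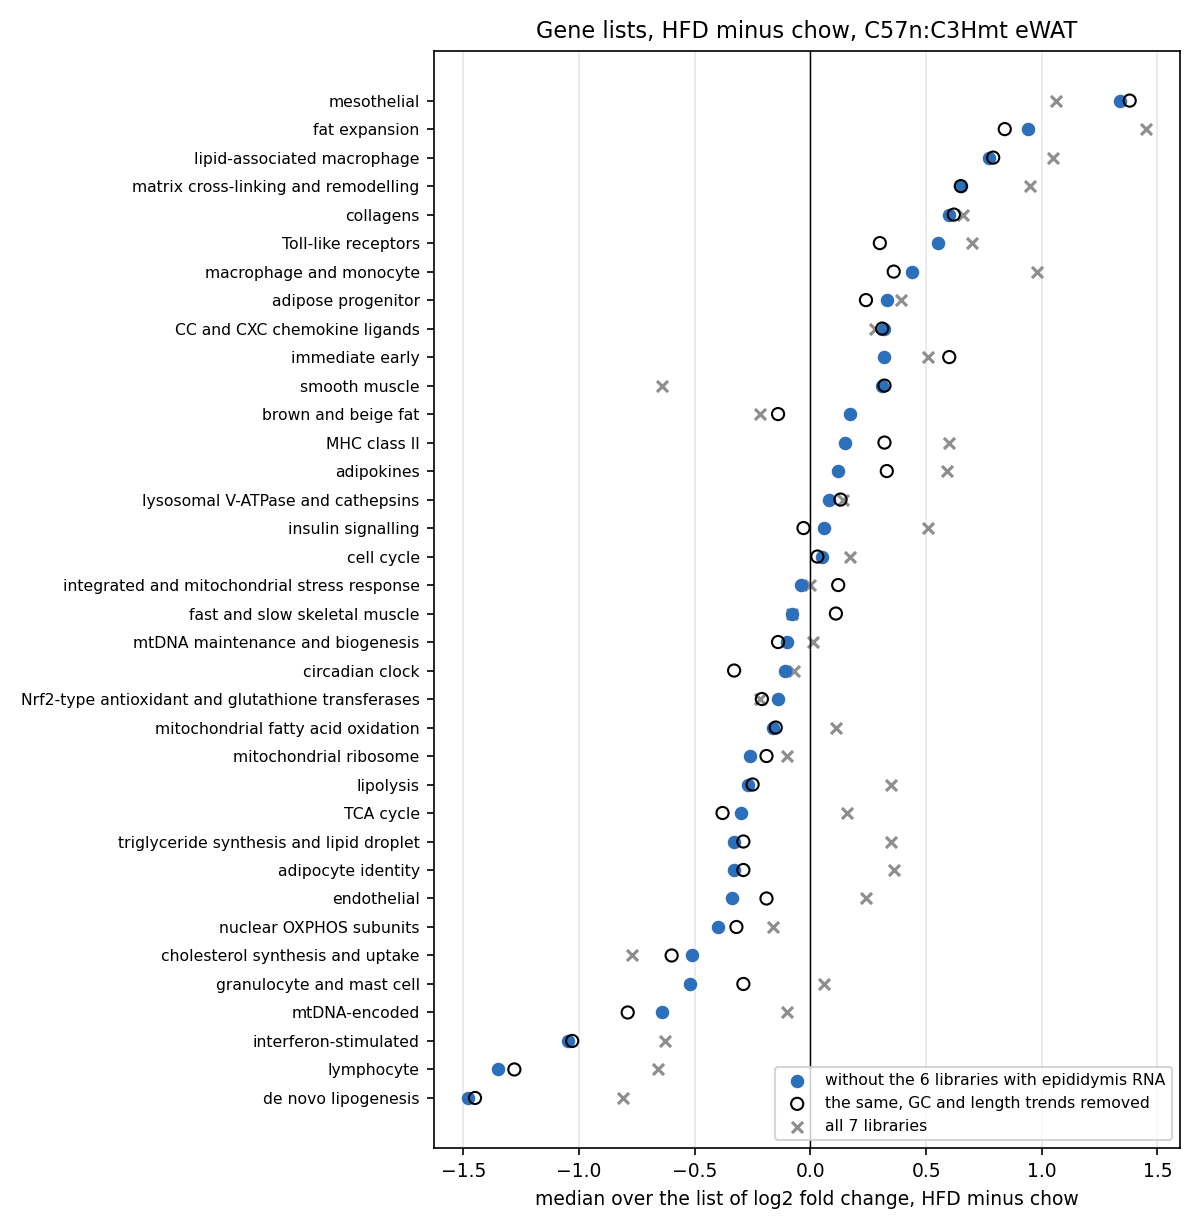
Median log2 fold change, HFD minus chow, of 36 gene lists in the fit without the 6 libraries (blue), the same with GC and length trends removed (open circles) and the fit over all libraries (grey crosses). De novo lipogenesis lies lowest at -1.48 without the 6 libraries, while adipocyte identity and endothelial genes lie on opposite sides of 0 with and without them, and the epididymis and keratinocyte lists are left out.

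Few calls held when any 1 library was left out. Of the 1241 genes, 28 were called again after leaving out each of the 7 libraries in turn, 24 higher and 4 lower, with log2 changes of 0.62 to 2.68 in size, and all 28 were called without the 6 libraries with the same sign. When only chow replicates 1 and 4 were left out, 14 of the 28 were called. C1galt1, which builds the core of O-linked glycans, was 19.3, 17.9 and 17.2 CPM on HFD and 6.74, 8.08, 7.51 and 6.97 CPM on chow (1.31 ± 0.17, adjusted p 0.000713). The BMP receptor gene Bmpr1a was 151, 143 and 155 CPM on HFD and 72.3, 68.7, 72.1 and 71.0 CPM on chow (1.08 ± 0.20, adjusted p 0.00959). Ero1l, an oxidase of the endoplasmic reticulum, was 36.3, 31.9 and 32.1 CPM on HFD and 19.4, 18.6, 18.1 and 19.0 CPM on chow (0.83 ± 0.12, adjusted p 0.00131). In these genes chow replicates 1 and 4 were close to chow replicates 2 and 3, whereas for Fasn they were far below them. The 4 lower genes were B3gat3, Btbd2, Mospd3 and Psmd3, and Psmd3, a proteasome subunit, was 76.4, 81.7 and 88.3 CPM on HFD and 121 to 133 CPM on chow (-0.62 ± 0.10, adjusted p 0.00255). Of the 27 of these genes with a transcript GC value, 6 were called with the GC and length trends removed without the 6 libraries: C1galt1, Cadps, Dr1, Ero1l, Nsg1 and Ube1l2.

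Among 21 immediate early genes, Klf4 was called in both fits. Over all libraries 2 of the 21 rose and 1 fell, where 3.16% of all genes were called higher and 3.82% lower. Without the 6 libraries 1 rose and 0 fell, where 1.43% of all genes were called higher and 1.33% lower. Klf4, a zinc finger transcription factor (chromosome 4, 55540013 to 55545347, minus strand), was 67.2, 68.7 and 76.8 CPM on HFD and 31.7, 40.8, 44.8 and 36.8 CPM on chow (0.88 ± 0.18, adjusted p 0.0117, and 0.70 ± 0.18, adjusted p 0.0462), but not with only chow replicates 1 and 4 left out (adjusted p 0.18). Fos was 86.5, 93.3 and 115 CPM on HFD and 28.8, 46.1, 36.8 and 31.7 CPM on chow, and rose over all libraries (1.46 ± 0.34, adjusted p 0.0213) but not without the 6 (adjusted p 0.077). Egr2 was called lower over all libraries (-2.89, adjusted p 0.0461), with 231 and 226 CPM in chow replicates 1 and 4. Against chow replicates 2 and 3, at 7.42 and 8.34 CPM, its 13.3, 12.6 and 21.9 CPM on HFD were higher, and its log2 fold change was 0.99 without the 6 libraries (adjusted p 0.215).

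In the lists of neighbouring tissue, 4 of 20 epididymis genes were called lower over all libraries and 6 of 13 without the 6. Of all genes, 3.82% and 1.33% were called lower in these fits. Without the 6, chow replicates 2 and 3 held 0.379 to 1.7 CPM of Crisp1, Lcn5, Lcn8, Rnase9, Rnase10 and Spink8. The HFD libraries held 0 to 0.297 CPM, around their detection limit of 0.159 to 0.183 CPM. Chow replicates 1 to 4 share run H22786 and lane code L6, and the source of these low counts was not tested. Lcn5, an epididymal lipocalin, was 0 CPM in all HFD libraries and 4606, 1.18, 1.25 and 5233 CPM in chow replicates 1 to 4. Mesothelial genes had positive changes for 12 of 12 without the 6 libraries, with a median of 1.34, and for 8 of 12 over all libraries, with a median of 1.06 and a lowest value of -5.06, and edgeR called 0 in both. Their summed level was 248, 333 and 183 CPM on HFD and 893, 87.6, 117 and 1042 CPM on chow. The mesothelial gene Msln, named after its values were seen, was 36.1, 42.2 and 38.0 CPM on HFD and 6.4, 12.9, 16.7 and 23.8 CPM on chow. The part of mesothelial or epididymal RNA in the other gene lists was not tested. Smooth muscle genes summed to 488, 462 and 718 CPM on HFD and 2080, 374, 412 and 1954 CPM on chow, and 0 of 9 were called by edgeR in either fit.

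In other lists the calls were few. Over all libraries, Clock rose among 19 circadian genes (1.19), Mitf among 45 lysosomal genes (1.54), and Gstp1 fell among 42 antioxidant and glutathione transferase genes (-0.66), and 0 of these lists had a call by edgeR without the 6. A count of 1 in such lists is near the 3.16% of all genes called higher and the 3.82% called lower. Of 22 genes of mitochondrial fatty acid oxidation, edgeR called 0 over all libraries and 1 without the 6, with medians of 0.11 and -0.16. That 1 gene was called higher, as were 1.43% of all genes without the 6. In neither fit did edgeR call a gene among 17 adipose progenitor, 20 endothelial, 31 chemokine, 15 granulocyte and mast cell, 11 MHC class II, 29 cell cycle, 24 stress response, 16 skeletal muscle or 7 keratinocyte and mammary genes.

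The response was then compared with that of C57n:C57mt mice, which differ in the mitochondrial genome. HFD replicates 1, 2 and 3 of C57n:C57mt come from run H31243. Their HFD replicate 4 comes from run H31244, which holds all HFD libraries of C57n:C3Hmt. Mitochondrial genome and HFD run thus cannot be fully told apart in this comparison. Without the 6 libraries, 305 genes were called in both genotypes with the same sign, which are 66.4% of the 459 genes called in C57n:C3Hmt and 11.5% of the 2642 called in C57n:C57mt, and 1 gene, Col23a1, was called with opposite signs. Of the 459 genes, 442 had the same sign in C57n:C57mt, with a median size of 0.87 in C57n:C3Hmt and 0.59 in C57n:C57mt. The genes were chosen by their test in C57n:C3Hmt, so the larger median there is no measure of a larger response. The direct test of the difference between the 2 responses called 0 of 17781 genes with edgeR (0.0%, 1269 at an unadjusted p under 0.05, lowest adjusted p 0.617), and DESeq2 called 63. With the 6 libraries left out, edgeR called 1 gene (0.006%), and 0 when HFD replicate 1, 2 or 3 was left out as well (1101, 646 and 1660 at an unadjusted p under 0.05). It called 0 with only chow replicates 1 and 4 left out (1304 at an unadjusted p under 0.05).

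That gene was Col23a1, a transmembrane collagen (chromosome 11, 51103422 to 51397420, plus strand). It was 7.78, 9.8 and 9.18 CPM on HFD and 17.5, 3.84, 3.6 and 18.6 CPM on chow in C57n:C3Hmt mice. In C57n:C57mt mice its mean was 5.96 CPM on HFD and 10.6 CPM on chow. Its log2 fold change was 1.23 ± 0.24 in C57n:C3Hmt and -0.87 ± 0.19 in C57n:C57mt, a difference of 2.10 ± 0.31 (adjusted p 0.0335). With the GC and length trends also removed, the difference of 1.92 did not pass (adjusted p 0.182), and Sorl1 was then the 1 gene called (-2.47, adjusted p 3.49e-05). Over all libraries the log2 fold change of Col23a1 was -0.29 in C57n:C3Hmt (adjusted p 0.764), and chow replicates 1 and 4 were its highest libraries. The fit without the 6 libraries kept chow replicates 1, 2 and 4 of C57n:C57mt. Before TMM scaling, Crisp1 was 10.67, 1.22 and 1.07 CPM in these, and the epididymis gene Cuzd1 39.89, 2.03 and 1.07 CPM. The part of this remaining epididymis RNA in the difference for Col23a1 was not tested.

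The lipogenic genes did not pass this test. The list median was -1.48 in C57n:C3Hmt and -0.84 in C57n:C57mt without the 6 libraries, and the differences of the 8 genes ran from -2.02 (Elovl6) to -0.16 (Aacs), with adjusted p from 0.312 (Acss2) to 1. Fasn averaged 2978 CPM on HFD and 13893 CPM on chow in C57n:C3Hmt mice (3 and 2 libraries), and 1819 CPM on HFD and 4058 CPM on chow in C57n:C57mt mice. Acss2 averaged 162 CPM on HFD and 895 CPM on chow in C57n:C3Hmt mice, and 146 CPM on HFD and 210 CPM on chow in C57n:C57mt mice. The differences in diet response of Fasn and Acss2 did not pass (adjusted p 0.831 and 0.312). Sterol genes had medians of -0.51 in C57n:C3Hmt and 0.04 in C57n:C57mt, and interferon-stimulated genes of -1.05 and -0.02, without the 6 libraries. No gene of these lists passed the edgeR test of the difference, over all libraries or without the 6.

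**Figure D5:**
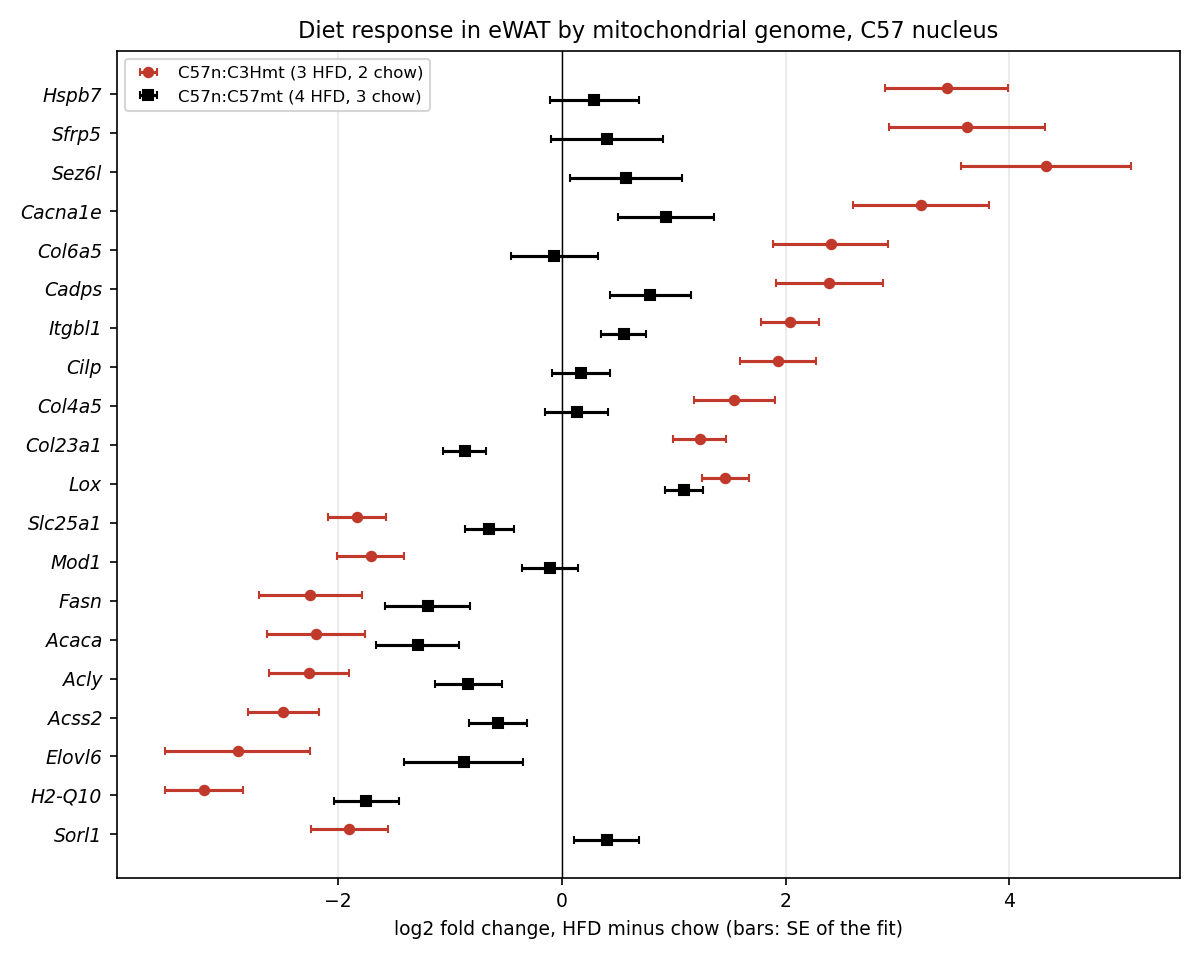
Log2 fold change, HFD minus chow, with its SE for 20 genes in C57n:C3Hmt (circles) and C57n:C57mt (squares) eWAT, without the 6 libraries with epididymis RNA. Hspb7 lies at 3.44 and 0.29 and Acss2 at -2.49 and -0.57, and of the genes shown only Col23a1 passed the test of the difference between these genotypes.

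Against the mean response of the other 3 genotypes, edgeR called 0 genes over all libraries (0.0%, 1931 at an unadjusted p under 0.05, lowest adjusted p 0.179) and DESeq2 383. With the 6 libraries with epididymis RNA left out, edgeR called 9 (0.054%). Hspb7 responded more by 3.74 ± 0.60 (adjusted p 0.035), and Cys1, Fxyd6, Col23a1 and Bat5 by 2.25, 2.14, 1.57 and 0.96. Sorl1, H2-Q10, Acss2 and the transcript AK169831 responded in the negative direction, by -2.22, -2.40, -1.99 and -1.95. Sorl1 averaged 26.4 CPM on HFD and 96.6 CPM on chow in C57n:C3Hmt mice, against 31 CPM on HFD and 22.8 CPM on chow in C57n:C57mt mice. AK169831 averaged 11.7 CPM on HFD and 45.5 CPM on chow in C57n:C3Hmt mice, against 12.4 CPM on both diets in C57n:C57mt mice. With HFD replicate 1, 2 or 3 also left out, 0, 4 and 2 genes passed this test, and over all libraries 127 passed without chow replicate 2 and 47 without chow replicate 3. With only chow replicates 1 and 4 left out, edgeR called 0 (792 at an unadjusted p under 0.05). Each of the other 3 genotypes has HFD libraries from run H31243, so these differences cannot be fully told apart from run.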

How the data were processed

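Tissue RNA was isolated with an RNeasy kit, per the labels' protocols, and reads were counted with RSEM on mm9, per the submitters' processing notes, which also name DESeq2 1.10.1. For RSEM, no version, annotation or mapper is given in the sources used here. Deposited per-gene values are expected counts, not normalized, and were rounded here. Per the file headers, G+C content and ribosomal reads are percent values.

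All 29 eWAT libraries were fitted together with edgeR 4.0.16 in R 4.3.3 (TMM, filterByExpr at its settings of 10 counts, 15 in total and 70% of libraries, quasi-likelihood F test, 1 mean per genotype and diet), so that the spread comes from all groups. This left 17781 genes. Genes were called at a two-sided Benjamini-Hochberg adjusted p under 0.05, adjusted over all genes, and adjusted p values are from edgeR unless DESeq2 1.42.0 is named. Printed CPM use TMM-scaled library sizes and carry no SE. Where 3 counts are the limit of detection, this is 0.159 to 0.183 CPM per HFD library and 0.109 to 0.117 CPM per chow library, for counting error only. GC and length trends were removed as spline offsets with transcripts of NCBIM37, for 84.3% of the genes. Coordinates come from that annotation.

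The line, the 38 gene lists, the comparisons and the alternatives were chosen with earlier results of these data known. The fits without libraries with epididymis RNA were added after seeing the data. Genes were named by rule: the 12 largest rises and falls among called genes whose groups do not overlap and whose higher group averaged at least 2 CPM, up to 4 called genes per list (or the 2 of smallest p), every gene called between genotypes, and a short list of fat genes, repeated without the 6 libraries with up to 8 per list, plus those kept on leaving out each library. Scd1, Srebf1, Mlxipl, Thbs1, Timp2 and Fdft1 were also named after their values were seen, and the called gene of the fatty acid oxidation list is not reported here. Figures were drawn with matplotlib 3.10.9 in Python 3.11.15.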

Additional observations from a re-analysis of the deposited data

Results flagged for a closer look

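Within the 4 chow libraries, Thbs2 in replicate 1 lay far below the others, with a gap of 0.896 of the group's range, and the total expected count of replicate 1 likewise, with a gap of 0.895. Chance gives such a gap in about 1 in 20 groups of this size.

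With the 6 libraries with epididymis RNA left out, the diet response of C57n:C3Hmt mice differed from that of C57n:C57mt mice for Col23a1, by 2.10 on the log2 scale (adjusted p 0.0335, edgeR). It differed from the mean of the other 3 genotypes for AK169831 (-1.95), Hspb7 (3.74), H2-Q10 (-2.40), Bat5 (0.96), Col23a1 (1.57), Acss2 (-1.99), Fxyd6 (2.14), Cys1 (2.25) and Sorl1 (-2.22), with adjusted p from 0.0152 to 0.0426. Over all libraries none of these differences passed. These values rest on 3 HFD and 2 chow libraries, and the HFD libraries of the genotypes compared differ in part by run.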

How the results depend on the processing

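The 1241 genes became 786 with no filter on low counts, 3472 with DESeq2, 637 at 2-fold or more, 45 without chow replicates 1 and 4, 459 without the 6 libraries with epididymis RNA, and 148 with GC and length trends also removed. EdgeR called 0 genes with a covariate for run H31244 against the other runs (2193 at an unadjusted p under 0.05). It also called 0 with GC and length trends removed (3025), and in fits of only the C57n:C3Hmt libraries (4161 for 7 and 3807 for 5). The covariate rests on HFD libraries of the other genotypes, and it cannot separate diet from the chow run H22786. Leaving out 1 library gave 50 to 2590 genes. With the 6 libraries also out, leaving out HFD replicates 1, 2 and 3 gave 235, 197 and 141. The difference from C57n:C57mt (0 genes) gave 63 with DESeq2, 1 without the 6 libraries, 1 with GC and length trends also removed (Sorl1), and 0 to 1 on leaving out a library (Rab29 without HFD replicate 3). The difference from the other 3 genotypes (0 genes) gave 383, 9, 10 and 0 to 127 in the same order, with AK004434 alone without HFD replicate 2 and Rab29 alone without HFD replicate 3, and 0, 4 and 2 without the 6 libraries and HFD replicates 1, 2 and 3. RLE size factors gave 1299, 0 and 0 genes.

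Signs turned for Egr2 (-2.89), to 1.02 without chow replicates 1 and 4, 0.99 without the 6 libraries, 1 with GC and length trends also removed, 1.02 with only 5 libraries, and 1.10, 1.13 and 0.69 without the 6 and HFD replicates 1, 2 and 3. Gstp1 (-0.66) turned to 0.02 with GC and length trends removed. Col23a1 (-0.29) turned to 1.23 without the 6 libraries, 1.26 with the trends also removed, and 1.32, 1.16 and 1.21 with an HFD library also out. Fxyd6 (-0.43) turned to 1.67 and 1.91, and 1.65 and 1.89 without HFD replicates 1 and 3. Bat5 (-0.01) turned to 0.67 without the 6 libraries and with the trends also removed. Of the causes, only fewer libraries or genes follow from the settings, and the others were not tested. No paired analysis was possible because the diet groups are different animals and their replicate numbers only follow accession order.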
